A study of Solanum lycopersicum with 36 samples.

Results

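The genes described here are 150 tomato genes whose mRNA rose between 0 and 24 h in wild type leaves and rose further in the line SGT2ox, out of 29285 genes in the table. The genes were chosen by measured values of these libraries, with L standing for log2(group mean + 1) of normalised reads. A gene qualified when L was higher at 24 h than at 0 h by 1 or more in both wild types, when its mean was 50 or more in SGT2ox at 24 h, and when SGT2ox and its wild type differed at 0 h by no more than 0.3. These conditions were met by 1903 genes. They were ranked by L in SGT2ox minus L in its wild type at 24 h, called the score, and the 150 highest were taken. The other 1753 are called the remaining risers.

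Leaves came from month-old plants of the dwarf cultivar Micro-Tom and their poly(A) RNA was sequenced. SGT2ox was sampled with its own wild type in one experiment, and SGT1ami with another wild type set in an experiment run separately. Both genotypes of an experiment were sampled at 0, 3 and 24 h in triplicate, so that 36 libraries form 12 groups. From its name, SGT2ox is taken to overexpress SGT2, and SGT1ami to carry an artificial microRNA aimed at SGT1. The sources used here do not give the promoter or how many transformants stand behind a line. The labels' protocols describe both plants moved to the cold and plants kept warm, but each library's own labels give its hour and not its temperature, so differences from 0 h are written as changes with time.

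The products of SGT1 and SGT2 belong to the sterol glycosyltransferases, which join a sugar to the hydroxyl group of sterols. Sterols and their glucosides are structural lipids of the plant plasma membrane, and their proportions are known to bear on how membranes behave in the cold. In plants kept in the cold, a large part of the genome commonly changes expression over hours to days, in an early wave of transcription factors and a later wave of protective and metabolic genes. The study's title links glycosylated sterols to cold tolerance and to jasmonate, a lipid-derived hormone of wounding and defence.

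None of the gene identifiers matched the reference gene table (0 of 29285 identifiers, against 41476 entries), and the file does not pair them with names. Genes are therefore given by identifier, their functions are not described, leaf markers could not be looked up, and levels are not compared between genes because transcript lengths are not known. The libraries held 36602841 to 43742623 reads each. Identifiers noted from memory for the targeted genes, which no table used here pairs with these names, were read first. Solyc09g061860, noted for SGT2, stood at 44060 ± 467 normalised reads in SGT2ox and 1372 ± 18.8 in its wild type at 24 h (mean ± SD, n = 3 each). Solyc06g007980, noted for SGT1, had 2435 ± 69.7 in SGT1ami against 7845 ± 112 at 0 h in the matching wild type. At 3 h SGT1ami had 2373 ± 95.1 against 5948 ± 198 in its wild type. The 24 h libraries labelled SGT1ami held 6173 ± 51.2 beside 6685 ± 214 in the wild type. For this identifier they thus did not show a difference of the size seen at 0 h and 3 h. The reason for this, and whether their label holds, was not tested. The words libraries labelled SGT1ami below mean these 3. Neither gene is among the 150.

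At 24 h the 150 genes were present at a higher level in SGT2ox than in its wild type, which is what the choice required. The median gene had a mean of 620 normalised reads in SGT2ox and 251 in its wild type. The score ran from 0.70 to 2.49 with a median of 0.91, which is 1.62-fold to 5.61-fold with a median of 1.88-fold. It was 1 or more for 64 genes and 2 or more for 4. All 150 had every SGT2ox library above every wild type library at 24 h, as did 22.2% of the 22399 genes tested in that experiment. In a fit over all genes (limma on log2(value + 1), Benjamini-Hochberg adjusted p of 0.05 or less), 111 of the 150 were called higher in SGT2ox at 24 h, beside 15.1% of all genes. Since this contrast chose the genes, nothing is read from these counts.

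At 0 h the same genes were level between the genotypes, which the choice required. For the remaining risers the medians at 0 h were 489 in SGT2ox and 499 in its wild type. The median gene of the 150 had a mean of 42.5 normalised reads in SGT2ox and 43.6 in its wild type, and 9 genes had no read in any of the 3 libraries of either group. The mean was below 10 for 42 genes in SGT2ox and for 40 in the wild type. From 0 to 24 h the median rise of L was 3.63 in SGT2ox and 2.68 in its wild type, against 2.01 and 1.90 for the remaining risers. Where no read was found at 0 h, the size of the rise depends on the 1 added before taking logs. Replicates were tight at 24 h, with a median coefficient of variation over the 150 genes of 5.99% in SGT2ox and 6.79% in its wild type, and looser at 0 h, with 14.8% and 14.3%.

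As a share of all reads, the 150 genes together took 1.02% ± 0.00682 in SGT2ox and 0.553% ± 0.00546 in its wild type at 24 h (mean ± SD, n = 3 each). At 0 h SGT2ox had 0.13% ± 0.00152 and its wild type 0.131% ± 0.00156, while at 3 h SGT2ox had 0.134% ± 0.00231 and its wild type 0.13% ± 0.00276. The 0 h and 24 h libraries entered the choice, so their shares are a description. The 3 h libraries did not enter it, and there the shares of both genotypes overlapped. A bulk leaf library cannot tell more RNA per cell from more cells that hold the RNA.

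**Figure D1:**
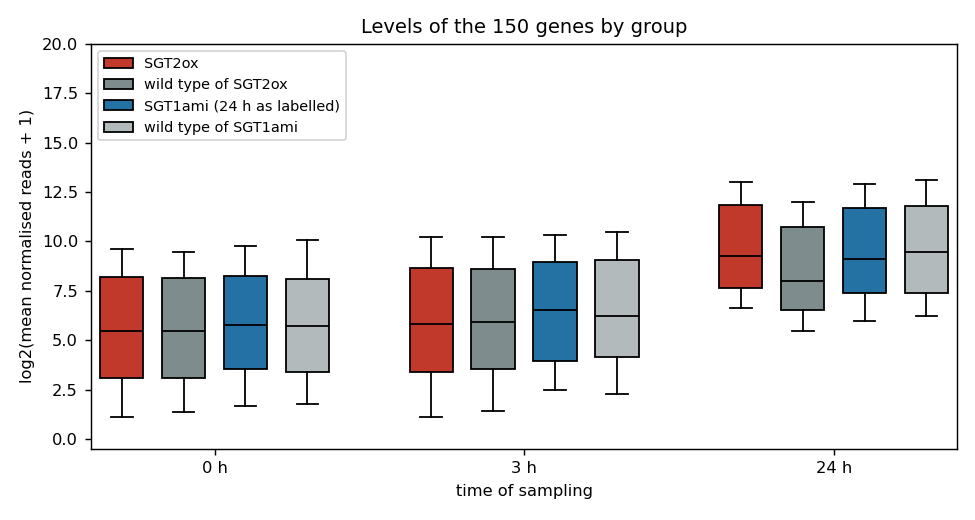
Levels of the 150 genes in each group, as log2(mean normalised reads + 1) on the y axis and time of sampling on the x axis. Boxes span the quartiles over genes with a line at the median, and whiskers the 10th to 90th percentile. The groups lie close together at 0 h and 3 h, and at 24 h the wild type of SGT2ox has the lowest box of the 4.

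The highest score belonged to Solyc04g015430, with 711, 691 and 614 normalised reads in the SGT2ox libraries of 24 h and 101, 134 and 121 in those of its wild type. Its 3 SGT2ox libraries at 24 h lay far above those of every other group. At 0 h it had 60.7, 38.8 and 55.6 in SGT2ox and 32.4, 59.1 and 47.3 in the wild type, so those groups overlapped. In the other experiment at 24 h it had 84.5, 85.5 and 111 in the libraries labelled SGT1ami and 79.2, 91.2 and 105 in the wild type. The level of SGT2ox at 24 h was reached in no other group.

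The next highest score belonged to Solyc03g006930, a gene with no read in any of the 6 libraries of 0 h in the SGT2ox experiment. At 24 h it had 780, 825 and 872 normalised reads in SGT2ox and 158, 132 and 168 in its wild type. Against the limit of 3 reads per library that a count of 0 allows, it was at least 320-fold higher at 24 h than at 0 h in SGT2ox and at least 64.1-fold higher in the wild type. These limits cover counting error only, and they are too high if each mate of a pair was counted. At 3 h it was still at 0 in all SGT2ox libraries and at 0, 0 and 2.47 in the wild type. In the other experiment it reached 295, 225 and 246 in the libraries labelled SGT1ami and 266, 225 and 247 in the wild type at 24 h. Its level in those 6 libraries lay between that of SGT2ox and that of its wild type.

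Around the threshold the scores lay close together. The lowest 2 scores among the 150 were 0.70 for both Solyc01g107760 and Solyc01g079600, and the first 2 genes outside had 0.70 (Solyc04g054150) and 0.69 (Solyc09g075670.1). Solyc01g079600 had 8614, 9116 and 9064 normalised reads in SGT2ox and 5621, 5381 and 5488 in its wild type at 24 h. Solyc04g054150 had 65.9, 69.1 and 96.5 in SGT2ox and 67.6, 40.6 and 33.6 in the wild type, where the groups overlapped.

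**Figure D2:**
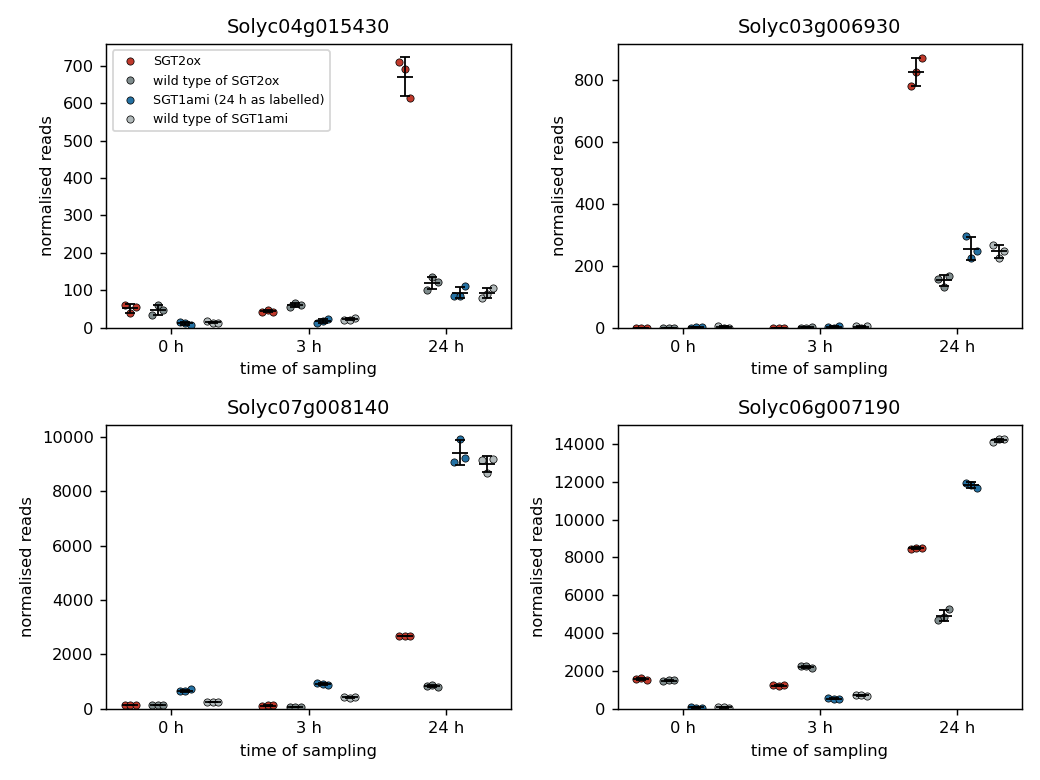
Normalised reads (y axis, linear) of 4 of the genes in every library by time of sampling (x axis). Points are libraries, and the bar and whiskers are the mean ± SD of 3. Solyc04g015430 and Solyc03g006930 stand highest in SGT2ox at 24 h, while Solyc07g008140 and Solyc06g007190 stand higher in both groups of the other experiment at that time than in SGT2ox.

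How did the enlarged level in SGT2ox compare with the second wild type set? At 24 h the median gene of the 150 had a mean of 697 normalised reads in the wild type of SGT1ami, which is above the 620 of SGT2ox and the 251 of the wild type of SGT2ox. The wild type of SGT2ox minus the wild type of SGT1ami had a median of -0.95 over the 150 genes on the log2 scale, and -0.57 over the remaining risers. The first of these wild types was lower for 126 of the 150 genes, and also for 79.6% of the remaining risers. In 117 its 3 libraries all lay below the 3 of the other wild type, beside 40.8% of the 22945 genes tested over all 36 libraries. SGT2ox minus the wild type of SGT1ami had a median of 0.05, with 79 genes higher and 71 lower. For the remaining risers that median was -0.46. The low level in the wild type of SGT2ox raises the score, so the choice favours genes that are low there, and these differences carry no test. Solyc09g061860, the identifier noted for SGT2, stood at 1372 ± 18.8 in the first wild type and 3324 ± 97.0 in the other at 24 h, and its part in the offset was not tested. The comparison also sets libraries of different experiments side by side, where genotype and experiment cannot be told apart.

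The offset between the wild types was smaller at the earlier times. The wild type of SGT2ox minus the wild type of SGT1ami had a median over the 150 genes of -0.27 at both 0 h and 3 h, against -0.29 and -0.37 for the remaining risers. In the wild type of SGT1ami the 150 genes rose by a median of 3.27 in L over 24 h. The median rises of the other experiment were 3.63 in SGT2ox and 2.68 in its wild type.

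**Figure D3:**
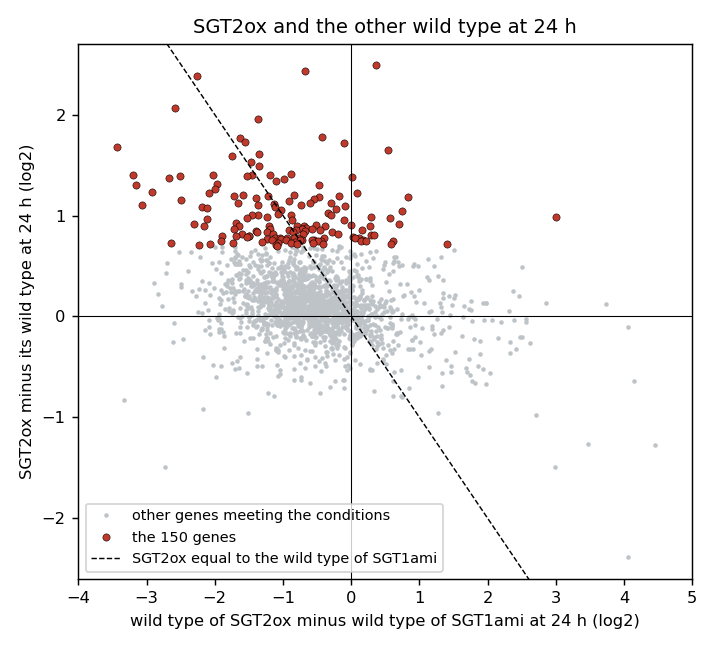
For each gene, the wild type of SGT2ox minus the wild type of SGT1ami (x axis) and SGT2ox minus its own wild type (y axis), both at 24 h as differences of log2(mean + 1). Red points are the 150 genes, grey points the 1753 remaining risers, and on the dashed line SGT2ox equals the wild type of SGT1ami. Of the red points 126 lie left of 0, as do 79.6% of the remaining risers, and 79 red points lie above the dashed line.

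When did the genes rise? In SGT2ox 148 of the 150 were highest at 24 h and 2 at 3 h, whereas its wild type had 145 highest at 24 h and 5 at 3 h. At 3 h L had risen by 1 or more for 35 genes in SGT2ox and 38 in its wild type, had fallen by 1 or more for 17 and 15, and had moved by less than 1 for 98 and 97. Of the remaining risers 17% and 18.5% had risen that far, and 9.5% and 7.2% had fallen that far. The median change of L at 3 h was 0.22 in SGT2ox and 0.38 in the wild type, and the median share of the 24 h change reached at 3 h was 6.84% and 12.6%. Most of the rise therefore lay between 3 and 24 h, where the median change was 3.11 in SGT2ox and 2.10 in the wild type. For the remaining risers these medians were 1.847 and 1.685. The 0 h and 24 h libraries entered the choice, so these changes carry no test, and the score favours a larger change to 24 h in SGT2ox.

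Scores overlapped between genes that moved at 3 h and those that did not. The 38 genes that had risen by 1 or more at 3 h in that wild type had a median score of 1.04, the 97 that moved by less than 1 had 0.87, and the 15 that had fallen had 0.93. Among the 38 early risers, 17 had also risen by 1 or more at 3 h in the wild type of SGT1ami and none had fallen that far. Of the 15 early falls, 3 rose in the other wild type and 12 moved by less than 1. By starting level, the 40 genes with a wild type mean below 10 at 0 h had a median score of 1.12, the 54 between 10 and 100 had 0.97, and the 56 at 100 or more had 0.85. The 40 low starters reached medians of 213 normalised reads in SGT2ox and 91.5 in its wild type at 24 h. The score and the 0 h levels both entered the choice, so the medians of these classes are a description and carry no test.

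Were the genes already higher in SGT2ox at 3 h? None of the 6 libraries of this comparison entered the choice. At 3 h the median gene had a mean of 55.1 normalised reads in SGT2ox and 59.7 in its wild type, and the median log2 fold change of the limma fit was 0.00 (median SE 0.20). Of the 150 genes, 11 were called higher and 23 lower in SGT2ox, and 116 did not pass (limma, adjusted p of 0.05 or less over 22399 genes). Of the 150, 35 entered the test through the 0 h or 24 h groups and not through their level at 3 h. The 11 are 7.33% of the 150, where 7.25% of all genes tested were called higher. The 23 are 15.3%, where 10.1% of all genes and 20% of the remaining risers were called lower. When library totals replaced the deposited scaling, the calls split into 16 higher and 19 lower, beside 11.3% and 6.67% of all genes. Of the genes called, 1 of the 11 higher and 8 of the 23 lower had a mean below 20 over the 6 libraries, as did 52 of the 150. Calls at such levels are the least reliable in this fit, which made more false calls than edgeR for this comparison in simulated data, many of them among low genes. With edgeR's quasi-likelihood test on recovered reads 14 of the 150 were called higher and 21 lower, beside 8.02% and 9.63% of all genes. With limma and the filter on the 2 groups alone, 115 of the 150 were tested. Of these 11 (9.57%) were called higher and 18 (15.7%) lower, beside 7.39% and 11.3% of all genes. No read was found in any library of either genotype for 8 genes, nor in SGT2ox alone for 6.

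Among the genes called at 3 h with a mean of at least 50 over the 6 libraries, Solyc07g008140 ranked first of those higher in SGT2ox. It had 112, 123 and 128 normalised reads in SGT2ox and 62.9, 70.0 and 54.3 in the wild type (log2 fold change 0.95, SE 0.11, limma adjusted p = 2.5e-07). The groups did not overlap, as at 24 h, where it had 2676, 2665 and 2694 in SGT2ox and 822, 886 and 802 in the wild type. Solyc04g078460 was close behind, with 273, 261 and 254 in SGT2ox and 139, 136 and 131 in the wild type (log2 fold change 0.95, SE 0.12, limma adjusted p = 2.3e-06).

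Lower in SGT2ox at 3 h and higher at 24 h was Solyc06g007190. At 3 h it had 1232, 1215 and 1246 normalised reads in SGT2ox and 2266, 2240 and 2176 in the wild type (log2 fold change -0.85, SE 0.04, limma adjusted p = 4.1e-14). At 24 h it had 8445, 8528 and 8486 in SGT2ox and 4698, 4828 and 5256 in the wild type. At 0 h its libraries spanned 1514 to 1624 in SGT2ox and 1452 to 1528 in the wild type, so that at 3 h SGT2ox lay below and the wild type above its own 0 h range. Solyc07g006770.2 went the same way, with 116, 105 and 120 in SGT2ox and 196, 163 and 138 in the wild type at 3 h (log2 fold change -0.53, SE 0.10, limma adjusted p = 2e-04), and 10292, 11365 and 10587 in SGT2ox against 5040, 4688 and 4862 in the wild type at 24 h.

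**Figure D4:**
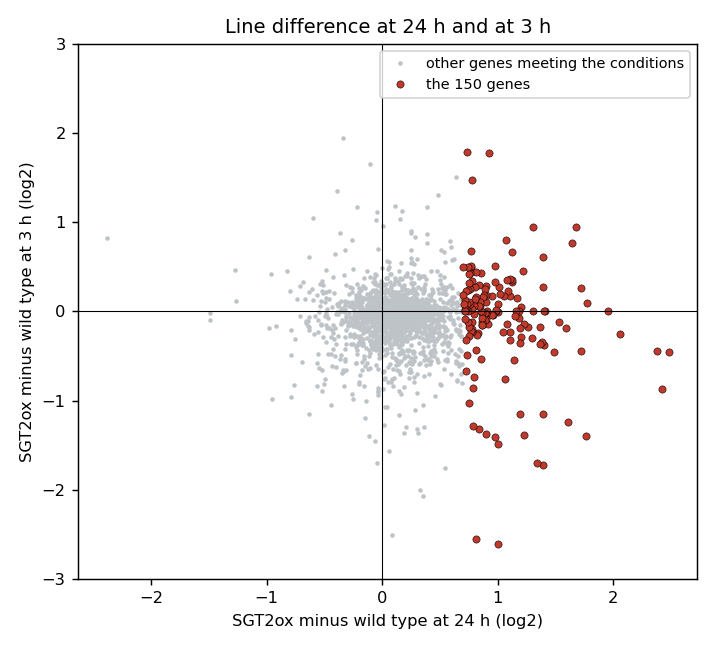
SGT2ox minus wild type at 24 h (x axis, the score for the 150 genes) and at 3 h (y axis), both as differences of log2(mean + 1). Red points are the 150 genes and grey points the remaining risers. The red points spread from -2.61 to 1.78 at 3 h around a median of 0.00.

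SGT1ami and its wild type at 3 h formed the second comparison free of the choice. The median gene had a mean of 91.7 normalised reads in SGT1ami and 75.1 in its wild type, and the median log2 fold change was 0.03 (median SE 0.18). Of the 149 genes tested in this experiment, 25 were called higher and 32 lower in SGT1ami and 92 did not pass (limma, adjusted p of 0.05 or less over 22286 genes). These are 16.8% and 21.5%, where 13.8% and 14.3% of all genes and 15.9% and 26.9% of the remaining risers were called. Of the 149, 25 entered through the 0 h or 24 h groups and not through their level at 3 h. With the filter and fit on the 2 groups alone, 19 of those still tested (15.3%) were called higher and 31 (25%) lower, beside 15.8% and 16.8% of all genes. Without the libraries labelled SGT1ami at 24 h in the fit, 19 of the 149 (12.8%) were called higher and 30 (20.1%) lower, beside 14.2% and 14.7% of all genes. The gene not tested, Solyc07g054550.1, had means of 108 in SGT2ox and 54.1 in its wild type at 24 h, but 11.3 in the 24 h libraries labelled SGT1ami and 5.88 in their wild type. It is named because it was not tested, not by its rank.

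Solyc07g008140 also ranked first of the genes at that mean called higher in SGT1ami than in its wild type at 3 h. It had 949, 896 and 862 normalised reads in SGT1ami and 417, 385 and 446 in its wild type (log2 fold change 1.12, SE 0.06, limma adjusted p = 5.6e-15). It already stood apart at 0 h, with 661, 638 and 711 in SGT1ami and 260, 262 and 246 in the wild type. At 24 h it had 9093, 9944 and 9232 in the libraries labelled SGT1ami and 9151, 8669 and 9197 in the wild type, so these groups overlapped. Solyc05g054090 had 148, 118 and 108 in SGT1ami and 71.4, 68.7 and 53.9 in its wild type at 3 h (log2 fold change 0.93, SE 0.20, limma adjusted p = 0.00079).

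Among called genes with a mean of at least 50 over the 6 libraries, Solyc12g009000.1 and Solyc07g007800 lay furthest below wild type in SGT1ami at 3 h. Solyc12g009000.1 had 505, 454 and 430 normalised reads in SGT1ami and 764, 813 and 777 in its wild type (log2 fold change -0.76, SE 0.08, limma adjusted p = 1.1e-08). It was also lower in SGT2ox at 3 h, with 424, 386 and 371 against 486, 487 and 505 in the wild type (log2 fold change -0.33, SE 0.08, limma adjusted p = 0.0038). Solyc07g007800 had 576, 595 and 568 in SGT1ami and 947, 949 and 887 in its wild type (log2 fold change -0.68, SE 0.06, limma adjusted p = 2.4e-09). For this gene SGT2ox and its wild type overlapped at 3 h, with 1373, 1480 and 1384 in SGT2ox and 1448, 1515 and 1321 in the wild type.

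Of the genes called in both lines at 3 h, 4 were higher in both, 10 lower in both, 3 higher in SGT2ox and lower in SGT1ami, and 1 the other way round. These 18 are 12.1% of the 149 tested in both, beside 8.9% of all 21851 genes and 16.4% of the remaining risers, and 77.8% of them shared their sign, beside 79.1% and 83.3%. The difference itself, SGT2ox minus its wild type less SGT1ami minus its wild type, was called for 33 of the 150 genes in a fit of all 36 libraries, 19 more positive in SGT2ox and 14 more negative (limma, adjusted p of 0.05 or less over 22945 genes). These are 12.7% and 9.33%, where 6.48% and 8.56% of all genes and 11.5% and 12.9% of the remaining risers were called. Of the 150, 21 entered through groups other than the 4 compared, and with filter and fit on those 4 alone 17 of 129 (13.2%) were more positive and 15 (11.6%) more negative, beside 7.24% and 8.92% of all genes. The median difference over the 150 genes was -0.09 (median SE 0.30).

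Among genes with a mean of at least 50 over the 12 libraries, the difference was most positive for Solyc01g066260.2. It had 49.7, 42.2 and 42.3 normalised reads in SGT2ox and 7.25, 22.2 and 7.40 in its wild type at 3 h, and 94.5, 94.8 and 109 in SGT1ami and 81.1, 73.5 and 104 in its wild type (difference 1.75, SE 0.46, limma adjusted p = 0.0063). The gene reached the mean of 50 through SGT1ami (99.4) and its wild type (86.2). In SGT2ox and its wild type the means were 44.7 and 12.3, the latter from 6, 19 and 6 reads. Solyc03g115890 came next (difference 0.77, SE 0.22, limma adjusted p = 0.01), with 181, 115 and 130 in SGT2ox against 89.4, 125 and 102 in its wild type, and 136, 132 and 162 in SGT1ami against 177, 199 and 174 in its wild type. Without replicate 1 of SGT2ox at 3 h, the value of 181, this call ended (0.58, limma adjusted p = 0.064).

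On the other side, Solyc06g075650 had 608, 708 and 625 normalised reads in SGT2ox and 743, 719 and 754 in its wild type, and 372, 311 and 357 in SGT1ami and 206, 182 and 206 in its wild type (difference -1, SE 0.20, limma adjusted p = 2e-04). Solyc06g060760 was similar, with 334, 313 and 319 in SGT1ami and 192, 160 and 187 in its wild type, and 350, 368 and 372 in SGT2ox and 314, 347 and 357 in its wild type (difference -0.74, SE 0.15, limma adjusted p = 0.00031).

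**Figure D5:**
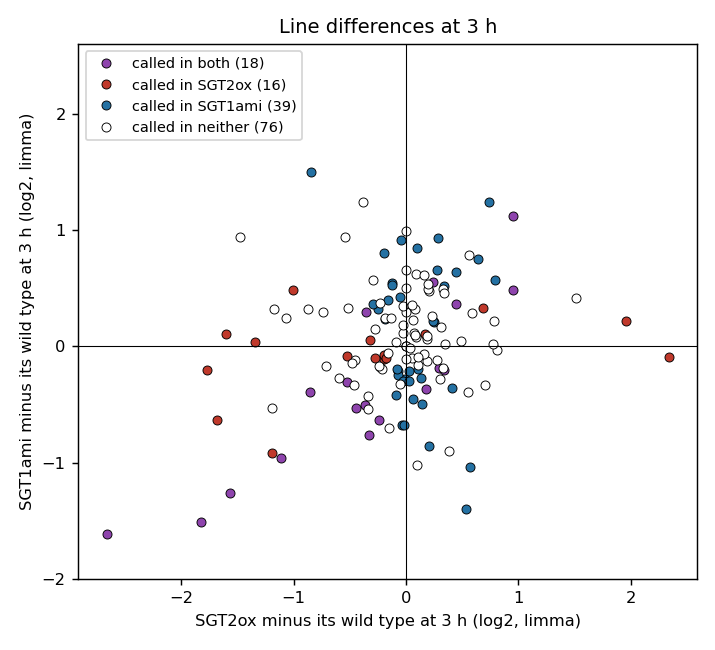
Limma log2 fold change at 3 h of SGT2ox against its wild type (x axis) and of SGT1ami against its wild type (y axis) for the 149 genes tested in both experiments. Colours show where a gene was called at an adjusted p of 0.05. Calls in both lines number 18, of which 14 share their sign (77.8%, beside 79.1% over all genes called in both).

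Did the SGT1ami line show the same rise with time? Its libraries did not enter the choice. When the 24 h libraries labelled SGT1ami were set against SGT1ami at 0 h, 148 of the 149 genes tested were called higher and 1 lower, where 42.7% and 40.1% of all 22286 genes were called (limma, adjusted p of 0.05 or less). Of the remaining risers 99.6% were called higher. Both sets had been chosen for a rise in 2 wild types, and 49 of the 150 were too low at 0 h to pass the filter there, so they were tested through groups where they are high. The counts and medians of this comparison are therefore a description. The median log2 fold change was 3.22 for the 149 genes (median SE 0.18), also with the 5 that had no read at 0 h set at their lower bound, and 2.04 for the remaining risers. The median rise of L over all 150 genes was 3.19 in the labelled libraries and 3.27 in their wild type. With library totals the median of the 149 was 2.72 and that of all genes tested -0.51, so that the 149 lay 3.23 above all genes, beside 3.19 with the deposited scaling.

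The 2 steepest rises belonged to genes with 0 and 2 reads over the 3 libraries of SGT1ami at 0 h. Both passed the filter only through the 24 h groups, where they are high, so no p-value is given. Solyc06g034410 had no read in the 3 SGT1ami libraries of 0 h and 1189, 1235 and 1184 normalised reads in those labelled SGT1ami at 24 h. Against the limit of 3 reads per library it was at least 500-fold higher. Solyc06g074140.1 had 2688, 2519 and 2539 at 24 h, from 6387 reads, and 0, 0 and 1.63 at 0 h, from 2 reads. The ratio was 4832, with an exact binomial 95% interval for counting error of 1337 to 39905. If each mate of a pair was counted, this interval is too narrow and the 500-fold limit too high. At 24 h in the SGT2ox experiment Solyc06g034410 had 817, 807 and 807 in SGT2ox against 289, 333 and 294 in its wild type. There Solyc06g074140.1 had 1041, 1152 and 1107 in SGT2ox against 490, 480 and 433 in its wild type.

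The 1 gene called lower was Solyc02g093180, with 50.7, 44.0 and 66.5 normalised reads in the 24 h libraries labelled SGT1ami and 94.6, 93.3 and 90.3 in SGT1ami at 0 h (log2 fold change -0.80, SE 0.19, limma adjusted p = 0.00037; -1.32 with library totals). Its wild type had 168, 144 and 103 at 24 h, against 47.2, 44.6 and 56.7 at 0 h. The SGT1ami libraries of 0 h were thus all above their wild type, and the 24 h libraries labelled SGT1ami all below theirs.

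At 3 h 77 of the 149 genes were called higher than at 0 h in SGT1ami and 20 lower, where 30.5% and 31.7% of all genes were called (limma, adjusted p of 0.05 or less). The 77 are 51.7% of the genes, close to the 53.9% of the remaining risers. The median log2 fold change was 0.52, and 0.33 with library totals, with the median of all genes at -0.02 and, with library totals, -0.22. Of the 149, 31 entered through groups other than these 2, and with filter and fit on the 2 alone 66 of 118 (55.9%) were called higher and 16 (13.6%) lower, beside 32.8% and 35.5% of all genes. Without the libraries labelled SGT1ami at 24 h in the fit, 75 (50.3%) were called higher and 19 (12.8%) lower, beside 30.9% and 32.5%.

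Among genes with a mean of at least 50 over the 6 libraries, the largest early rise was that of Solyc12g009000.1, with 505, 454 and 430 normalised reads in SGT1ami at 3 h and 27.6, 24.9 and 25.2 at 0 h (log2 fold change 4.11, SE 0.08, limma adjusted p = 3.8e-26). In SGT2ox the same gene stood at 424, 386 and 371 at 3 h and at 297, 318 and 362 at 0 h, so its starting level differed between the experiments by more than its spread. Solyc02g090970.1 had 215, 192 and 220 in SGT1ami at 3 h and 6.31, 17.7 and 26.0 at 0 h (log2 fold change 3.76, SE 0.26, limma adjusted p = 3.7e-13). Some genes dipped before they rose. Solyc07g065960.1 had 173, 178 and 201 in SGT1ami at 3 h and 326, 341 and 345 at 0 h (log2 fold change -0.87, SE 0.08, limma adjusted p = 4.8e-10), and 2679, 2805 and 2800 in the libraries labelled SGT1ami at 24 h. Solyc06g071160 had 625, 565 and 616 in SGT1ami at 3 h and 885, 1056 and 1017 at 0 h (log2 fold change -0.71, SE 0.05, limma adjusted p = 1.9e-12), and 6013, 6115 and 6264 in the labelled libraries of 24 h.

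Between the libraries labelled SGT1ami and their wild type at 24 h most of the 150 genes differed by less than 2-fold. The labelled libraries minus the wild type had a median of -0.18 on the log2 scale, against -0.09 for the remaining risers, and 2 genes reached a 2-fold difference, both lower. In 76 genes all labelled libraries lay below all wild type libraries and in 7 above, beside 22.3% and 12.4% of the genes tested. The wild type libraries entered the choice and the label is in doubt, so no test is given. At 0 h SGT1ami minus its wild type had a median of -0.02.

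By the tomato naming convention the digits between Solyc and g give the chromosome. Of the 150 genes, 23 carried chromosome 2, 22 chromosome 6 and 21 chromosome 1, which are 15.3%, 14.7% and 14% of them. Among all 1903 genes that met the conditions the shares were 11.4%, 9.25% and 13.5%, and over all genes of the series 10.4%, 8.53% and 12.3%. Among the 150 there were 2 pairs that stood in neighbouring rows of the table, and this too is a description with no test.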

How the data were processed

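The authors deposited a signal for 36 leaf libraries, which is read counts scaled by one factor in each library. The values show this, since 100% of them became whole reads, to within 0.01, after division by the library's lowest nonzero value. Per the submitters' processing notes, the authors used DESeq2, featureCounts, STAR and Trimmomatic, whose versions and roles are not listed. Build, annotation and strand setting are not stated there, so genes that overlap and close copies may share reads. Among values of 2 to 11 reads 78.8% were even, as when each mate of a pair is counted, and counting limits are then too narrow.

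Groups were taken from sample titles. The labels call the triplicates biologically independent, and p-values measure only the spread between these libraries. Log2(value + 1) entered limma 3.58.1 (R 4.3.3) with its trend option, and low genes' changes are understated on that scale. The experiments had separate fits (18 libraries, 6 groups, 12 residual degrees of freedom), and the difference between lines on all 36. Genes at 10 or more in at least 3 libraries of a fit were tested, and p-values were adjusted by Benjamini-Hochberg over all of them. The fits were tested on simulated data with 200 known changes. For SGT2ox at 3 h limma made 164 right and 31 false calls, and edgeR 168 and 6. In the other comparisons limma made 5 to 13 false calls. The simulated counts had the same dispersion for every gene and no counting of mates, so errors in the real data can differ.

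The 150 genes and the lists were chosen with earlier results of these data known. Gene lists by function and promoter motifs could not be applied without names or sequences. Tests were made on 5 contrasts whose compared groups are free of the 18 libraries that chose the genes. Those libraries still entered the filter and the shared estimate of spread in the fits. Named are the 2 highest and 2 lowest called genes per test with a mean of at least 50 over the libraries compared, and the 2 genes at each end of the score and outside it. The alternatives were library totals, TMM scaling, a pseudocount of 5, no filter and a filter of 50, edgeR 4.0.16 and DESeq2 1.42.0 on recovered reads, fewer groups, a replicate block and leaving out each library.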

Additional observations from a re-analysis of the deposited data

Results flagged for a closer look

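For 11 of the named genes among the 150 the difference from wild type at 3 h was not the same in both lines, by the limma test of the difference over all 36 libraries. All values are on the log2 scale, as SGT2ox minus its wild type less SGT1ami minus its wild type, and each line's own difference is given first for SGT2ox. More positive in SGT2ox were Solyc01g066260.2 (1.75, from 1.96 and 0.21, adjusted p = 0.0063, limma), Solyc03g115890 (0.77, from 0.41 and -0.36, adjusted p = 0.01, limma) and Solyc07g007800 (0.66, from -0.01 and -0.68, adjusted p = 1.3e-07, limma). So were Solyc01g079600 (0.55, from 0.18 and -0.37, adjusted p = 3.4e-10, limma), Solyc04g078460 (0.47, from 0.95 and 0.48, adjusted p = 0.0056, limma) and Solyc12g009000.1 (0.44, from -0.33 and -0.76, adjusted p = 0.0032, limma).

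More negative in SGT2ox were Solyc06g075650 (-1, from -0.19 and 0.80, adjusted p = 2e-04, limma), Solyc06g060760 (-0.74, from 0.10 and 0.84, adjusted p = 0.00031, limma) and Solyc07g065960.1 (-0.56, from -0.16 and 0.40, adjusted p = 0.0046, limma). Solyc06g007190 (-0.46, from -0.85 and -0.39, adjusted p = 0.0023, limma) and Solyc07g006770.2 (-0.44, from -0.53 and -0.09, adjusted p = 0.003, limma) were lower than wild type in both lines by value. Each line was grown and sequenced with its own wild type, so line and experiment cannot be told apart in these differences. Solyc01g066260.2, Solyc03g115890, Solyc06g075650 and Solyc06g060760 were named for this very difference, so their place here was fixed in advance. Others were named for a difference in 1 of the lines, which favours a difference between lines. The 11 belong to the 33 of the 150 genes (22%) called for the difference, beside 15% of all genes tested and 24.4% of the remaining risers.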

How the results depend on the processing

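All 249 recomputed counts of called genes stayed within 1.5 times the reported count, and 316 of 317 recomputed values of named genes kept their direction and call. The exception was Solyc03g115890 without replicate 1 of SGT2ox at 3 h (0.58, adjusted p = 0.064, limma). Genes called in SGT2ox at 3 h numbered 27 to 37 over the settings, in SGT1ami at 3 h 48 to 62, 142 to 150 between the 24 h libraries labelled SGT1ami and SGT1ami at 0 h, 82 to 101 between SGT1ami at 3 h and 0 h, and for the difference between lines 30 to 39. In the same order, the shares of all genes called ran from 12.8% to 19.5%, 21.7% to 32.5%, 69.2% to 86.7%, 49.3% to 68.9% and 11.4% to 17.3%. With edgeR's quasi-likelihood test on recovered reads the counts were 35, 59, 149, 93 and 35. Beside these, 17.6%, 31%, 83.4%, 64.7% and 15.7% of all genes were called. Replicate numbers did not pair the libraries (correlations of deviations from -0.019 to 0.016). With a replicate block the counts were 35, 57, 149, 95 and 35, beside 17.1%, 27.7%, 82.7%, 62% and 14.8% of all genes. The list itself depends on the scaling. By the same conditions with library totals 110 of the 150 genes were chosen again, with a pseudocount of 5 118, with means of log2 values 137, with a floor of 200 reads 112, and without 1 library of 24 h 139 to 145. Of the 83 recomputed medians over the genes 36 moved by more than the spread between replicates, the widest range being 2.72 to 3.35 for the 24 h libraries labelled SGT1ami against SGT1ami at 0 h.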
